A study of Mus musculus with 8 samples.

Results

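The interferon-induced genes described here were 62 of the 18131 rows of a mouse bead-array table. They were taken by name alone, as every row whose symbol starts with the letters of the main interferon-induced families (IFI followed by a digit, IFIT, IFITM, OAS, GBP, IRF, the immunity-related GTPases and ISG) or is one of a few further names such as Ifih1, Rsad2, Usp18, Stat2, Mx1 and Mx2. Their levels were compared between 3 gut segments. Each array held total RNA of GFP-positive cells purified by flow sorting from adult Ngn3-GFP mice, in which GFP marks cells that have switched on Neurog3, the transcription factor that starts the enteroendocrine (gut hormone cell) lineage. There were 3 gastric arrays (pyloric, that is antral, stomach), 3 duodenal arrays and 2 colonic arrays. All groups carry the reporter, no group was treated, and the labels give neither strain background nor sex. Nothing in the labels says that the arrays of a segment came from different mice or whether mice were pooled, so every p-value below measures the spread between arrays, which may be technical. The segments also differed in how cells were released, since the stomach was held in EDTA for 2 h and then digested with Accutase for 30 min, whereas duodenum and colon were held in EDTA for 30 min and digested with dispase for 15 min. Segment and release procedure cannot be told apart for the stomach.

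Interferons are secreted proteins that cells make when they sense viral or bacterial nucleic acids. Type I interferons (alpha and beta) and type III interferons (lambda, to which gut epithelium responds strongly) act through the Janus kinases Jak1 and Tyk2 and a complex with Stat2 and Irf9 that binds the interferon-stimulated response element. Type II interferon (gamma, made by T cells and natural killer cells) acts through Jak1 and Jak2 and on genes with a gamma-activated site. The genes they switch on sense and destroy viral RNA (Ifih1 and the OAS family), block virus entry or replication (IFITM, IFIT and MX proteins), attack the membranes around intracellular parasites (the guanylate-binding proteins and the immunity-related GTPases) and carry the signal further (Stat2, Irf1, Irf7, Irf9).

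Values are the deposited expression values on a log2 scale, so a difference of 1 is a 2-fold change. The table has no detection call. Olfactory receptor genes, which gut cells are not known to use, served as a measure of background. Their 1075 rows centred on 6.59 (median), and the 95th percentile, 6.81, is called the background level here. A segment whose mean lay under it has only a bound, and a ratio against it is given as "at least". Levels of different genes were not set against each other, since each has its own probe. A row was called different at a Benjamini-Hochberg adjusted p under 0.05 in a limma fit over all 18131 rows and all 8 arrays, with no limit on the size of the difference. Arrays of a segment were almost identical (correlation over all rows 0.9974 to 0.998), and many rows passed this test, so each count of members is set beside the percentage of all rows called in the same direction.

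Most of the members that could be measured were lowest in gastric cells. Of the 62 members, 42 lay above background in at least 1 segment and 20 lay at background in all 3. Above background were 29 members in gastric cells, 40 in duodenal cells and 41 in colonic cells. The highest mean of the 42 was in gastric cells for 6 members, in duodenal cells for 18 and in colonic cells for 18. The gastric level was called lower than both the duodenal and the colonic level for 31 members, and higher than both for 5, while 15.9% of all rows were called lower than both and 15.9% higher than both. Among these, Ifi44 of the 31 and Ifitm1 of the 5 were at background in every segment. Both comparisons use the same gastric arrays.

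Between gastric and duodenal cells, 9 members were called higher in gastric cells and 34 lower, and 19 were not called. Over all rows 22.7% were called higher and 23.9% lower, so 14.5% and 54.8% of the members stand beside those figures. The median difference was -0.19 over the members and -0.01 over all rows. Among the calls, 3 higher and 4 lower ones were of members with both means at background (Ifitm1, Ifitm6 and Ifitm7, and Oas1e, Oas1f, TGTP and Ifi44), whose size cannot be read.

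Between gastric and colonic cells, 6 members were called higher in gastric cells, 33 lower and 23 neither, against 20.2% higher and 23.9% lower over all rows. The median difference was -0.18 over the members and -0.02 over all rows. With both means at background were 1 member called higher (Ifitm1) and 2 called lower (Ifitm5 and Ifi44). The comparison shares its gastric arrays with the previous one.

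Between duodenal and colonic cells, 11 members were called higher in duodenal cells, 18 lower and 33 neither, against 16.0% higher and 18.2% lower over all rows. The shares of members, 17.7% and 29.0%, stood closer to those of all rows than in the gastric comparisons. The median difference was -0.03 over the members and -0.01 over all rows, and that of the members was -0.07 without colonic replicate 1 and -0.05 without duodenal replicate 2. At least 2-fold differences were called for 2 members, Oasl1 and Rsad2, both higher in duodenal cells, against 2.02% of all rows called at least 2-fold higher there. In the gastric comparisons, 13 members were called at least 2-fold lower in gastric than in duodenal cells (3.70% of all rows) and 14 at least 2-fold lower in gastric than in colonic cells (3.39% of all rows). At least 2-fold higher in gastric than in duodenal cells were 2 members, Isg20 and Ifitm3 (4.07% of all rows). Of the 6 members called higher in gastric than in colonic cells by limma, 0 reached 2-fold (4.03% of all rows), and of the 18 called lower in duodenal than in colonic cells, 0 did (1.54% of all rows). In bulk RNA of sorted cells, fewer cells carrying a transcript and less of it per cell cannot be told apart.

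**Figure D1:**
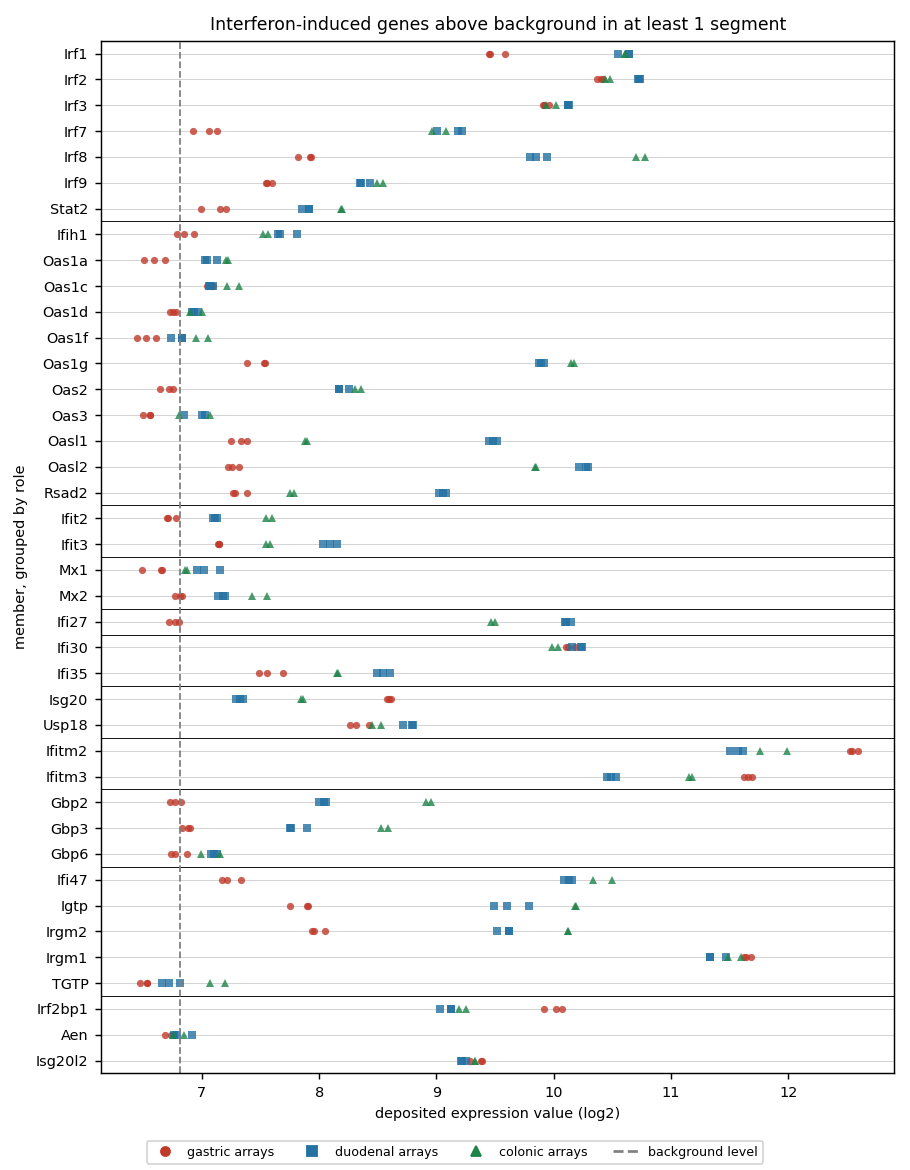
Deposited expression value (log2, horizontal axis) of 40 of the 42 interferon-induced genes above background in at least 1 segment, with 1 point per array (3 gastric circles, 3 duodenal squares, 2 colonic triangles), lines between role groups and the background level of 6.81 dashed. Gastric points lie to the left of both other segments for most rows, and to the right for Isg20, Ifitm2, Ifitm3, Irgm1 and Irf2bp1.

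The sequences before these genes show which of them carry the core of the interferon-stimulated response element close to their start. The core was searched as GAAANNGAAA, N being any base, on both strands of RefSeq promoter windows of 300 bases (250 before and 50 after the start, build GRCm38.p6). Of the members, 46 genes had 55 windows, and 21 windows (38.2%), each of another gene, held the core, against 1131 of 32851 windows of all genes (3.44%). Paralogs that arose by duplication share much of their promoter, so these windows are not independent. The core of the gamma-activated site, TTCNNNGAA, was in 14 of the members' windows (25.5%), against 8.3% of all windows. A match is a run of letters and not a shown binding site. The 8 stretches that follow belong to genes whose levels differed between segments in the ways described after them, with the core in capitals, read 5′ to 3′ on the strand of the gene and ending at its start at the latest. Where the capitals begin with T, the core lies on the other strand.
Gbp2, chr3:142620574-142620643, plus strand: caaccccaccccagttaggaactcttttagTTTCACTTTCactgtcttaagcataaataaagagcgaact
Gbp3, chr3:142559969-142560043, plus strand, 2 overlapping cores: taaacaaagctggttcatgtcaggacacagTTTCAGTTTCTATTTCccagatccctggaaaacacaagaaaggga
Igtp, chr11:58199492-58199555, plus strand: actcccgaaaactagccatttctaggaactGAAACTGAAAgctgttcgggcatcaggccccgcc
Irgm2, chr11:58214883-58214952, plus strand: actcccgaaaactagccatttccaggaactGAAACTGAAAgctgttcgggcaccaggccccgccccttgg
Irgm1, chr11:48871421-48871480, minus strand, 2 overlapping cores: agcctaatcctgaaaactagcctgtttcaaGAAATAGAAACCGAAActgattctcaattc
Oas1g, chr5:120887614-120887661, minus strand, 2 overlapping cores: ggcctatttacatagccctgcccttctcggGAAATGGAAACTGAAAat
Rsad2, chr12:26456533-26456602, minus strand: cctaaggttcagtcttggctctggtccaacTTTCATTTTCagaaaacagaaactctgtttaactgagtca
Ifit3, chr19:34583343-34583446, plus strand, 2 cores: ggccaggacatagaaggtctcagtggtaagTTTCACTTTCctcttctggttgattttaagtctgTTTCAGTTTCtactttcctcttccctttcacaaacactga

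The neighbouring genes Igtp and Irgm2 share 62 of the 64 bases that both stretches cover, and the stretch of Oas1g is the same as that of its paralog Oas1a over all 48 shared bases. Having the core did not go with one pattern across the segments. Of the 21 genes with a core, 11 were lower in gastric cells in both comparisons, 2 were higher in both and 5 were at background in every segment. Of the 25 genes without a core in the window, 11 were lower in both and 3 higher in both. At background in every segment were 9. Among all rows, 15.9% were lower in both and 15.9% higher in both.

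Among the transcription factors and signal carriers (STAT and IRF genes), 8 of 11 were lower in gastric than in duodenal cells and none higher. Against colonic cells, 6 were lower and 1 higher in gastric cells. Lower in gastric cells were 23.9% of all rows in each comparison, and higher were 22.7% and 20.2%. Irf7, the factor that amplifies type I interferon production, read 7.13, 7.06 and 6.93 in gastric arrays, 9.21, 9.18 and 9.01 in duodenal arrays and 9.08 and 8.96 in colonic arrays. All gastric arrays lay below all others, and duodenal and colonic arrays overlapped. The gastric level was 4.26-fold below the duodenal (log2 difference -2.09 ± 0.066 SE, limma adjusted p = 8.75e-13) and 3.94-fold below the colonic level (adjusted p = 7.58e-12), whereas the duodenal minus colonic difference of 0.11 was not called (limma adjusted p = 0.297).

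Irf8, a factor best known from myeloid cells, was lowest in gastric and highest in colonic cells. It read 7.82, 7.93 and 7.92 in gastric arrays, 9.85, 9.94 and 9.79 in duodenal arrays and 10.78 and 10.70 in colonic arrays. No 2 segments overlapped, and the gastric level was 3.93-fold below the duodenal and 7.21-fold below the colonic level, with the duodenal level 1.83-fold below the colonic (limma adjusted p = 1.65e-08). The 2 partners of the type I and III complex were lowest in gastric cells as well. Stat2 averaged 7.12 ± 0.11 in gastric cells, 7.89 ± 0.03 in duodenal cells (SD, n = 3 each) and 8.19 ± 0.01 in colonic cells (SD, n = 2), and Irf9 averaged 7.57 ± 0.03, 8.38 ± 0.04 and 8.52 ± 0.04 in the same order. The duodenal minus colonic difference of Irf9, -0.14, was not called (limma adjusted p = 0.0514), but was called with dim rows left out, with trend and robust variance, with joint adjustment over the 3 comparisons and without duodenal replicate 1.

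Irf1, an early target of interferon gamma, averaged 9.50 ± 0.08 in gastric cells, against 10.61 ± 0.05 in duodenal cells and 10.61, with an SD under 0.01, in colonic cells, so that the gastric level was 2.17-fold and 2.16-fold lower, and the 2 intestinal levels did not differ beyond their spread. Irf2, a partner and competitor of Irf1, and Irf3, the factor that sensors activate by phosphorylation, differed by at most 0.33 in any comparison. Irf4 and Irf5, known from lymphocytes and myeloid cells, were at background in every segment.

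The genes that sense, mark or degrade RNA were mostly lowest in gastric cells. Of 14 (Ifih1, Rsad2 and 12 OAS genes), 11 were lower in gastric than in duodenal cells and 11 lower than in colonic cells. In both comparisons 23.9% of all rows were called lower, and none of the 14 was higher. Oasl2, a relative of the 2′-5′-oligoadenylate synthetases, read 7.23, 7.26 and 7.32 in gastric arrays, 10.21, 10.29 and 10.27 in duodenal arrays and 9.84 and 9.85 in colonic arrays. Its gastric level was 7.95-fold below the duodenal and 5.96-fold below the colonic level (limma adjusted p = 3.1e-16 and 5.36e-15), and the duodenal level was 1.33-fold above the colonic. Oas1g, one of the enzymes that make the activator of RNase L, read 7.54, 7.39 and 7.53 in gastric arrays, 9.91, 9.87 and 9.89 in duodenal arrays and 10.14 and 10.17 in colonic arrays. It was 5.31-fold lower in gastric than in duodenal cells and 6.37-fold lower in gastric than in colonic cells, and here the colonic level was the highest of the 3.

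Oas2 read 6.64, 6.75 and 6.72 in gastric arrays, all at background, against 8.17, 8.26 and 8.16 in duodenal arrays and 8.30 and 8.36 in colonic arrays. The gastric level was therefore at least 2.61-fold below the duodenal and at least 2.86-fold below the colonic level, and the 2 intestinal segments were not called different. Ifih1, the sensor MDA5 of long double-stranded RNA, averaged 6.86 ± 0.07 in gastric cells, just above background, against 7.71 ± 0.09 in duodenal cells and 7.54 ± 0.04 in colonic cells. The other 8 OAS rows (7 of OAS1 genes and Oas3) did not exceed 7.31 in any array. These paralogs are close in sequence and a probe may read more than 1 of them.

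A pair of genes of this group set the duodenum apart from both other segments. Oasl1, which in mouse cells holds back translation of Irf7, read 7.38, 7.25 and 7.33 in gastric arrays, 9.45, 9.48 and 9.52 in duodenal arrays and 7.89 and 7.88 in colonic arrays. Rsad2, or viperin, which makes a nucleotide that stops viral RNA synthesis, read 7.27, 7.28 and 7.38 in gastric arrays, 9.05, 9.08 and 9.02 in duodenal arrays and 7.79 and 7.76 in colonic arrays. For both genes the colonic arrays stood nearer to the gastric than to the duodenal arrays, and no arrays of different segments overlapped. Oasl1 was 3.02-fold higher in duodenal than in colonic cells and Rsad2 2.43-fold higher (limma adjusted p = 5.91e-12 and 6.42e-11), while gastric cells were 1.48-fold and 1.38-fold below colonic cells for the same 2 genes.

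Of the IFIT proteins, which bind viral RNA, Ifit3 and Ifit2 could be measured and Ifit1 was at background in every segment. Ifit3 read 7.15, 7.14 and 7.15 in gastric arrays, 8.04, 8.09 and 8.15 in duodenal arrays and 7.58 and 7.55 in colonic arrays, so that its order was that of Rsad2. Gastric cells were 1.93-fold below duodenal cells and 1.34-fold below colonic cells, and duodenal cells were 1.44-fold above colonic cells (limma adjusted p = 1.01e-06). Ifit2 ran the other way between the intestinal segments, with 6.73 ± 0.04 in gastric cells, at background, 7.11 ± 0.02 in duodenal cells and 7.57 ± 0.04 in colonic cells. Mx2, a dynamin-like GTPase that blocks viruses, read 6.77, 6.82 and 6.83 in gastric arrays, 7.20, 7.18 and 7.14 in duodenal arrays and 7.56 and 7.43 in colonic arrays, a small rise above background that was called in all 3 comparisons. Mx1 averaged 6.60 ± 0.10 in gastric cells, 7.04 ± 0.10 in duodenal cells and 6.87 ± 0.02 in colonic cells, and is disrupted in many laboratory strains.

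The IFI27 row had the widest difference in deposited values of all members between gastric and duodenal cells. Its name is the current symbol of Ifi27 and an older symbol of its relative Ifi27l2a, so the row may read either, both being small membrane proteins strongly induced by type I interferon. It read 6.72, 6.78 and 6.81 in gastric arrays, 10.11, 10.10 and 10.14 in duodenal arrays and 9.47 and 9.50 in colonic arrays. All gastric arrays were at background. The gastric level was at least 9.86-fold below the duodenal (limma adjusted p = 7.21e-17) and at least 6.36-fold below the colonic level, and the duodenal level was 1.55-fold above the colonic. Ifi35, a partner of the interferon-induced protein Nmi, read 7.49, 7.56 and 7.69 in gastric arrays, 8.50, 8.54 and 8.60 in duodenal arrays and 8.16 and 8.15 in colonic arrays, the same order with smaller steps. Ifi30, a lysosomal thiol reductase of antigen processing, averaged 10.13 ± 0.04 in gastric cells, 10.21 ± 0.05 in duodenal cells and 10.01 ± 0.03 in colonic cells and was not called in the gastric comparisons.

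The guanylate-binding proteins and the immunity-related GTPases, which interferon gamma in particular induces, were for most of their measured members lowest in gastric and highest in colonic cells. Of these 13 members, none was called higher in duodenal than in colonic cells, 7 were called lower and 6 were not called. Over all rows 16.0% were called higher and 18.2% lower. Of the 7 lower calls, that of Irgm1 (limma adjusted p = 0.0433) was lost in several alternatives. Gbp2 read 6.77, 6.73 and 6.82 in gastric arrays, 8.001, 8.06 and 8.04 in duodenal arrays and 8.95 and 8.91 in colonic arrays. Gbp3 read 6.83, 6.90 and 6.88 in gastric arrays, 7.89, 7.75 and 7.76 in duodenal arrays and 8.53 and 8.58 in colonic arrays. Both genes, whose promoter stretches are printed above, stepped up along the gut without overlap between segments. Duodenal cells were 1.87-fold below colonic cells for Gbp2 and 1.69-fold below for Gbp3 (limma adjusted p = 2.29e-09 and 6e-08), and gastric cells were at least 4.34-fold and 3.22-fold below colonic cells for the same genes. Gbp6 lay only just above background in the intestine (7.10 ± 0.03 in duodenal and 7.07 ± 0.12 in colonic cells), and Gbp2b, Gbp4, Gbp5 and Gbp10 were at background in every segment.

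Among the immunity-related GTPases, Ifi47 (Irgd) had the widest difference in deposited values of all members between gastric and colonic cells. Members at background in gastric cells, such as the IFI27 row, have only a bound. Ifi47 read 7.34, 7.17 and 7.22 in gastric arrays, 10.13, 10.16 and 10.09 in duodenal arrays and 10.33 and 10.49 in colonic arrays. Gastric cells were 7.37-fold below duodenal cells and 9.01-fold below colonic cells (limma adjusted p = 3.94e-15 and 5.26e-15). The duodenal minus colonic difference of -0.29 passed the test (limma adjusted p = 0.00226) but not without colonic replicate 2. Igtp (Irgm3), which with Irgm1 and Irgm2 regulates the GTPases that attack vacuoles, read 7.75, 7.89 and 7.90 in gastric arrays, 9.49, 9.79 and 9.60 in duodenal arrays and 10.18 and 10.19 in colonic arrays. Irgm2 read 7.93, 8.05 and 7.95 in gastric arrays, 9.62, 9.62 and 9.52 in duodenal arrays and 10.12 and 10.12 in colonic arrays. These neighbours, with nearly the same promoter stretch, had like steps. Gastric cells were 3.43-fold and 3.05-fold below duodenal cells and 5.03-fold and 4.42-fold below colonic cells for Igtp and Irgm2, and duodenal cells were 1.47-fold and 1.45-fold below colonic cells.

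Irgm1, a further member of the family that also serves autophagy, did not share the low gastric level. It read 11.63, 11.68 and 11.64 in gastric arrays, 11.33, 11.47 and 11.33 in duodenal arrays and 11.60 and 11.49 in colonic arrays. Gastric cells were 1.21-fold higher than duodenal cells (limma adjusted p = 0.000532) and were not called against colonic cells, although the printed Irgm1 stretch holds 2 cores. The TGTP row, which may read either of the effector GTPases Tgtp1 and Tgtp2, was above background in colonic cells alone, at 7.13 ± 0.09, against 6.51 ± 0.04 in gastric and 6.73 ± 0.08 in duodenal cells. Iigp1, another effector GTPase, was at background in every segment.

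Few members were higher in gastric cells. The IFITM proteins stop viruses from fusing with endosomes. Of 6 members, 5 were called higher in gastric than in duodenal cells, against 22.7% of all rows. Of these 5, 3 had both means at background, and no member of the 6 was called lower. Ifitm3 read 11.62, 11.69 and 11.65 in gastric arrays, 10.53, 10.45 and 10.49 in duodenal arrays and 11.18 and 11.15 in colonic arrays. Gastric cells were 2.24-fold above duodenal cells and 1.40-fold above colonic cells (limma adjusted p = 1.08e-11 and 1.11e-06), and duodenal cells were 1.60-fold below colonic cells. Ifitm2 averaged 12.55 ± 0.04 in gastric cells, 11.56 ± 0.06 in duodenal cells and 11.87 ± 0.17 in colonic cells, so that the same segments stood highest and lowest. Both are known to be made by many cells without interferon.

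Isg20, a nuclease that degrades single-stranded RNA, read 8.58, 8.61 and 8.60 in gastric arrays, 7.32, 7.29 and 7.35 in duodenal arrays and 7.84 and 7.86 in colonic arrays. Its order, with the gastric level highest and the duodenal lowest, was that of Ifitm2 and Ifitm3. Gastric cells were 2.42-fold above duodenal cells and 1.68-fold above colonic cells (limma adjusted p = 2.3e-12 and 5.93e-09). Usp18, which removes the ubiquitin-like protein Isg15 from its targets and damps the type I receptor, read 8.42, 8.26 and 8.31 in gastric arrays, 8.80, 8.79 and 8.71 in duodenal arrays and 8.52 and 8.45 in colonic arrays. Usp18 was 1.35-fold lower in gastric than in duodenal cells and 1.11-fold lower in gastric than in colonic cells. The second call, at a limma adjusted p of 0.0489, was lost in several alternatives. Isg15 itself was not analysed here.

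The 4 DNA-binding members of the p200 family (Ifi202b, Ifi203, Ifi204 and Ifi205) were at background in every segment and were called in no comparison. Ifi204, for instance, read 6.55, 6.44 and 6.59 in gastric arrays, 6.52, 6.58 and 6.70 in duodenal arrays and 6.60 and 6.49 in colonic arrays. Such values do not prove absence, since a probe can also read poorly. A further 3 rows matched only by their letters, and none is a classical interferon-induced gene. Irf2bp1, a corepressor that binds Irf2, read 10.07, 10.02 and 9.92 in gastric arrays, 9.12, 9.12 and 9.03 in duodenal arrays and 9.19 and 9.25 in colonic arrays, and was 1.88-fold and 1.72-fold higher in gastric cells. Isg20l2, a nuclease of ribosome assembly, and Aen, a nuclease induced by p53, differed by at most 0.12. Without these 3 rows, 7 of 59 members were higher and 34 lower in gastric than in duodenal cells. Against colonic cells, 5 were higher and 33 lower in gastric cells. Over all rows, 22.7% were higher and 23.9% lower in the first comparison, and 20.2% and 23.9% in the second.

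**Figure D2:**
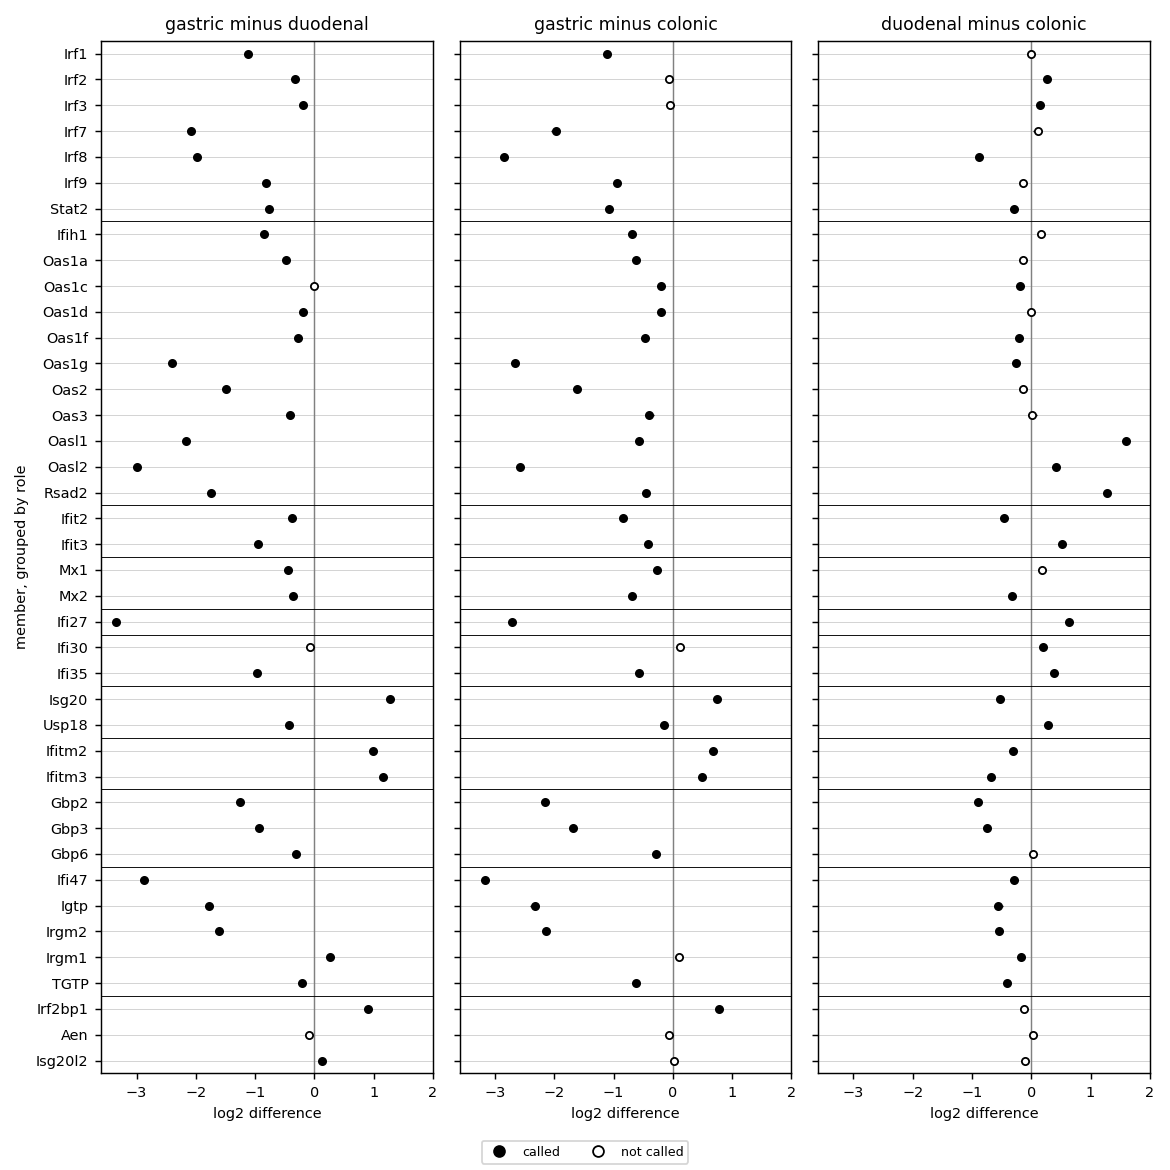
Log2 difference (horizontal axis, with bars of the standard error of the fit, mostly hidden by the symbols) of 40 of the 42 interferon-induced genes above background in at least 1 segment, in gastric minus duodenal (left), gastric minus colonic (middle) and duodenal minus colonic cells (right), filled where called at an adjusted p under 0.05. The left and middle panels reach -3.35 and -3.17, while the right one stays between -0.90 and 1.59.

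Genes outside the member list that interferons also induce were counted next. Like the members, this list and those that follow were chosen with earlier results of these data known. Of 32 such genes with a row, 3 were called higher and 23 lower in gastric than in duodenal cells (median -0.84), and 1 was called higher and 25 lower in gastric than in colonic cells (median -0.51). Between duodenal and colonic cells the calls ran both ways, with 15 higher and 10 lower. Of all rows, 22.7% were called higher and 23.9% lower in gastric than in duodenal cells. The shares were 20.2% and 23.9% in gastric minus colonic cells, and 16.0% and 18.2% in duodenal minus colonic cells. Samhd1, which depletes the nucleotides that retroviruses need, averaged 7.93 ± 0.06 in gastric cells, 9.97 ± 0.05 in duodenal cells and 8.90 ± 0.02 in colonic cells. Uba7, the enzyme that activates Isg15, averaged 9.26 ± 0.02, 11.14 ± 0.03 and 10.68 ± 0.02 in the same order, and Lgals9, a galectin, 9.05 ± 0.02, 10.93 ± 0.04 and 10.55 ± 0.04. Bst2 (tetherin), which holds budding viruses at the cell surface, was highest in the colon, at 7.06 ± 0.04 in gastric, 8.33 ± 0.08 in duodenal and 8.75 ± 0.17 in colonic cells. The 1 gene of this list higher in gastric cells in both comparisons was Lgals3bp, a secreted glycoprotein, 2.25-fold above duodenal and 2.21-fold above colonic cells.

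Genes of antigen processing and chemokines that interferon gamma induces were lower in gastric than in duodenal cells for 13 of 14, with none higher. Against colonic cells, 13 of 14 were lower in gastric cells and 1 was higher (Tap2). In each comparison 23.9% of all rows were called lower. The immunoproteasome subunits Psmb8 and Psmb9 were 3.88-fold and 4.97-fold below duodenal cells and 3.03-fold and 4.90-fold below colonic cells. Ido1, which breaks down tryptophan, was most abundant in the duodenum, at 7.23 ± 0.07 in gastric cells, 14.26 ± 0.03 in duodenal cells and 10.13 ± 0.06 in colonic cells. Cd74, the invariant chain of class II antigen presentation, was most abundant in the colon, at 8.64 ± 0.08, 9.83 ± 0.04 and 12.96 ± 0.02 in the same order. Duodenal cells were thus 17.5-fold above colonic cells for Ido1 and 8.75-fold below them for Cd74.

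The ligands that were measured were at or near background. Of 21 interferon genes listed, 17 had a row, and the lambda genes Ifnl2 and Ifnl3 were not analysed here. Of the 17, only Ifna1 and Ifna6 had a mean above it in any segment, and no mean exceeded 7.05. Ifnb1 and Ifng, the genes of interferon beta and gamma, averaged 6.43 and 6.58 in gastric cells, 6.46 and 6.56 in duodenal cells and 6.51 and 6.53 in colonic cells, all background. Against 23.9% of all rows in each gastric comparison, 6 of 9 receptors and Janus kinases were lower in gastric than in duodenal cells. Lower in gastric than in colonic cells were 4 of 9. The 1 called higher in gastric than in colonic cells was Jak1, at 8.98 ± 0.08 in gastric cells, against 8.73 ± 0.04 in colonic cells (limma adjusted p = 0.004). The ligand-binding chain of the gamma receptor, Ifngr1, averaged 9.36 ± 0.05 in gastric cells, 10.24 ± 0.03 in duodenal cells and 10.12 ± 0.03 in colonic cells, and its partner Ifngr2 8.55 ± 0.01, 9.11 ± 0.08 and 9.002 ± 0.05. The lambda receptor Ifnlr1 was 1.31-fold lower in gastric than in duodenal cells and 1.18-fold lower in gastric than in colonic cells. The type I receptor chain Ifnar1 was at background in every segment and Ifnar2 close to it, at 6.87 ± 0.02 in gastric, 6.84 ± 0.07 in duodenal and 6.88 ± 0.06 in colonic cells, and neither was called in any comparison.

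Of 12 sensors and adaptors, 10 were lower in gastric than in duodenal cells and 7 lower in gastric than in colonic cells. The share of all rows called lower was 23.9% in both comparisons. Dhx58 (LGP2), a helicase that works with Ifih1 and is itself induced by interferon, averaged 7.07 ± 0.09 in gastric cells, 8.21 ± 0.04 in duodenal cells and 8.48 ± 0.06 in colonic cells, and the kinase Ikbke 7.46 ± 0.06, 8.33 ± 0.09 and 8.52 ± 0.03. The 1 gene of the list higher in gastric than in duodenal cells was the adaptor Myd88, by 1.14-fold. Genes that restrain cytokine signalling had no common direction. Of 9, 3 were higher and 2 lower in gastric than in duodenal cells. Against colonic cells, 3 went each way. Shares of all rows were 22.7% higher and 23.9% lower in the first comparison, and 20.2% and 23.9% in the second. Cish, a suppressor induced by Stat5, averaged 9.74 ± 0.12 in gastric cells, 8.32 ± 0.04 in duodenal cells and 8.90 ± 0.12 in colonic cells, and Socs3 9.44 ± 0.03, 8.76 ± 0.03 and 9.93 with an SD under 0.01. Socs1, the suppressor that interferon gamma induces, was at background in every segment.

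**Figure D3:**
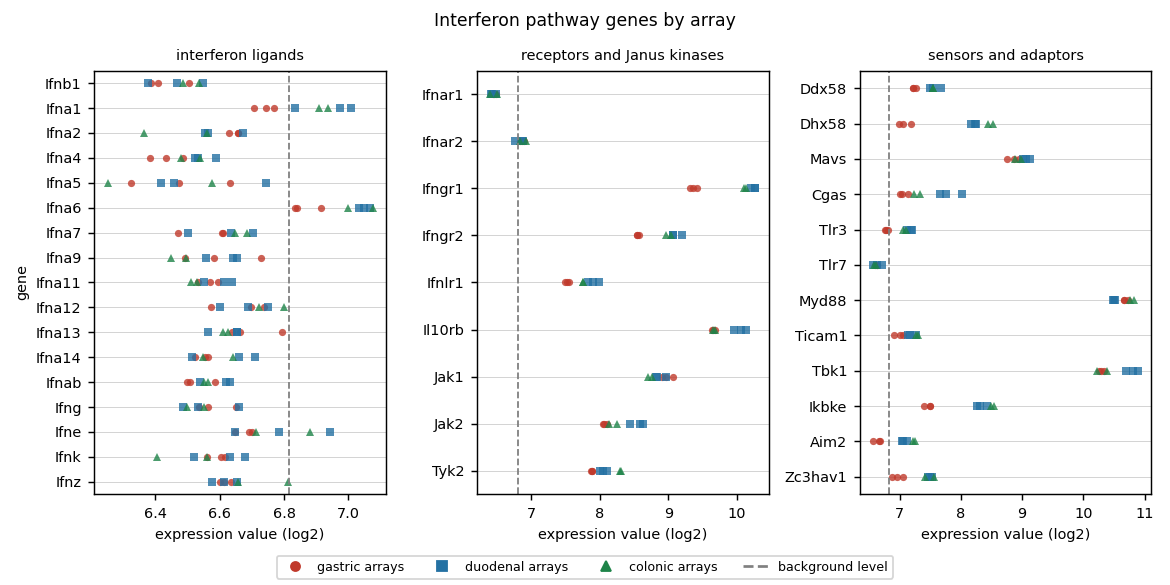
Expression value (log2, horizontal axis of its own in each panel) of interferon ligands (left), receptors and Janus kinases (middle) and nucleic acid sensors and adaptors (right), with 1 point per array (gastric circles, duodenal squares, colonic triangles) and the background level of 6.81 dashed. Ligands crowd at or below background in all segments, whereas Ifngr1 and Dhx58 lie to the left in gastric arrays.

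The cells of the 3 segments were not alike in other ways, and these values stand beside the member results. Neurog3, on whose reporter the cells were sorted, averaged 13.03 ± 0.07 in gastric cells, 9.74 ± 0.03 in duodenal cells and 8.73 ± 0.05 in colonic cells. It is therefore no independent check of the label of enteroendocrine cells. Chga (chromogranin A) averaged 13.13 ± 0.06, 10.07 ± 0.02 and 8.40 ± 0.06 in the same order. Of 10 enteroendocrine markers, 9, 9 and 8 were above background in gastric, duodenal and colonic cells (Pax6 was at background in all), and the sum of their linear values was 51500 to 53580 in gastric arrays, 9104 to 9652 in duodenal arrays and 3002 to 3088 in colonic arrays. No background was subtracted from this sum or from those that follow, so rows at background add to each. Markers of other epithelial cells were also present. The sum over 6 enterocyte markers was 4085 to 4187 in gastric, 35270 to 35770 in duodenal and 2312 to 2379 in colonic arrays, and that over 7 markers of gastric chief, parietal and mucous cells was 132600 to 133800 in gastric, 4048 to 4202 in duodenal and 681.0 to 711.3 in colonic arrays. Atp4b, a subunit of the acid pump of parietal cells, averaged 12.90 ± 0.04 in gastric cells and was at background in duodenal and colonic cells. Fabp2, an enterocyte gene, was at background in every segment. All 3 colonocyte markers with a row were called lower in gastric cells in both comparisons, as were 15.9% of all rows. Their sum was 1069 to 1138 in gastric, 1635 to 1724 in duodenal and 1844 to 2077 in colonic arrays. Tuft cells, the chemosensory cells of the epithelium, had 5 markers with a sum of 1076 to 1182 in gastric, 1893 to 2053 in duodenal and 557.3 to 561.5 in colonic arrays. The part of these cell mixtures in the differences between the members was not tested.

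Most lymphocyte transcripts were highest in duodenal cells, and 8 of 12 were called higher in duodenal than in colonic cells. The same call was made for 16.0% of all rows. Of these 12 markers of T cells and intraepithelial lymphocytes, 1 was above background in gastric cells, 8 in duodenal cells and 2 in colonic cells, with sums of linear values of 1221 to 1243, 3426 to 3514 and 1316 to 1331. Rows at background make up part of these sums. The chemokine Ccl5 averaged 6.61 ± 0.05 in gastric cells, 10.23 ± 0.03 in duodenal cells and 6.74 ± 0.13 in colonic cells. Cd3g, a CD3 chain of the T cell receptor complex, averaged 6.60 ± 0.06, 8.85 ± 0.03 and 6.62 ± 0.20 in the same order. Cd8a, Cd2, Gzmb and Ptprc were at background in every segment. Lck, a kinase of T cell receptor signalling, went another way, at 7.05 ± 0.05 in gastric cells, 7.77 ± 0.06 in duodenal cells and 7.78 ± 0.05 in colonic cells. It was 1.65-fold lower in gastric than in colonic cells (limma adjusted p = 3.39e-08) and was not called between duodenal and colonic cells. The CD3 chains Cd3d, Cd3e and Cd3g were at background in colonic cells. All 11 members called higher in duodenal than in colonic cells had their highest mean in duodenal cells, among them Oasl1, Rsad2, Ifit3, Oasl2, the IFI27 row, Ifi35 and Usp18, and the part of lymphocytes in their levels was not tested.

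Of 10 myeloid markers, 3 were above background in gastric cells, 2 in duodenal cells and 2 in colonic cells. The sums of their linear values were 1134 to 1143, 1290 to 1353 and 1026 to 1038 in the same order. Most of these rows lay at background, which was not subtracted, so the nearness of the sums does not show equal levels. In gastric minus duodenal cells, 1 was called higher and 3 lower, with differences from -1.47 to 0.79. In gastric minus colonic cells, 3 were higher and 1 lower (-0.23 to 1.07). In duodenal minus colonic cells, 3 were higher and 1 lower (-0.31 to 1.70). Over all rows the shares were 22.7% and 23.9%, 20.2% and 23.9%, and 16.0% and 18.2%. Adgre1, Itgam and Csf1r, named after their values were seen, were at background in every segment. The markers above background are not named here, and these 3 do not show that myeloid cells were absent. Of 5 B and plasma cell markers, none, 2 and 1 were above background in gastric, duodenal and colonic cells.

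**Figure D4:**
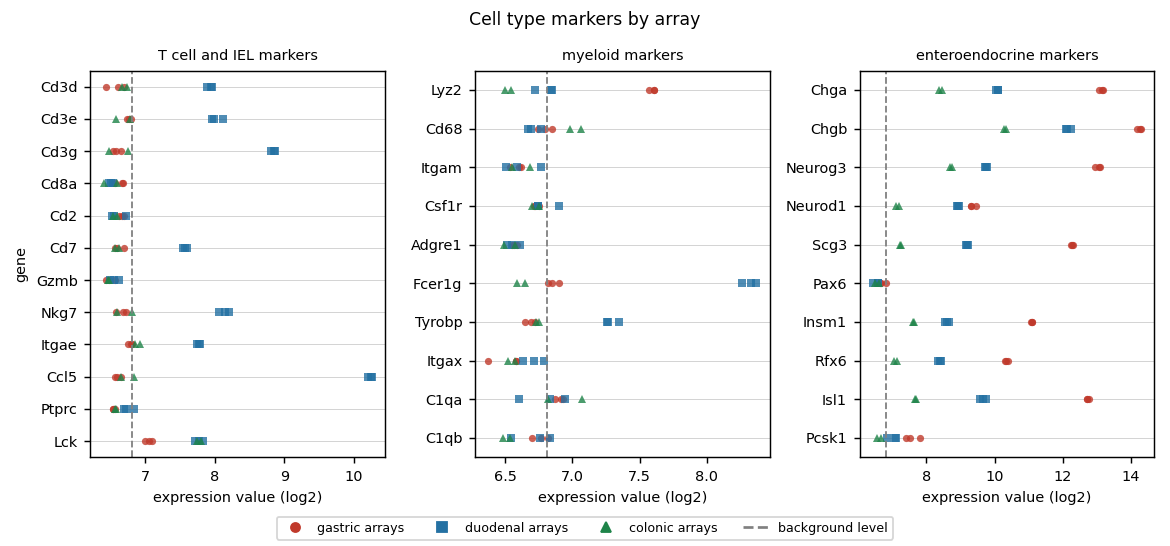
Expression value (log2, horizontal axis of its own in each panel) of markers of T cells and intraepithelial lymphocytes (IEL, left), myeloid cells (middle) and enteroendocrine cells (right), with 1 point per array (gastric circles, duodenal squares, colonic triangles) and the background level of 6.81 dashed. Duodenal arrays stand apart for Ccl5 and the Cd3 chains, and enteroendocrine markers are highest in gastric arrays.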

How the data were processed

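The authors hybridised biotinylated cRNA, made with the Ambion TotalPrep kit from TriZol-extracted RNA, to Illumina bead arrays, per the labels' protocols. The deposited table holds 1 normalized value per gene symbol and array, read as log2 because values run from 6.22 to 15.49 (no label states the base). GenomeStudio, lumi and limma are named, without versions or roles, per the submitters' processing notes. The sorted columns differ by at most 0.0043, as after quantile normalization. The joining of probes into rows is not stated in the labels. The number of arrays limits the precision, and there are no counts.

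Groups came from the sample titles. One linear model with a mean per segment was fitted to all 8 arrays with limma 3.58.1 in R 4.3.3 (lmFit, eBayes), adjusted by Benjamini-Hochberg over all 18131 rows of each comparison. The fit was also run on simulated data with independent noise of its own estimated spread. That run cannot address whether arrays of a segment were technical replicates. Errors are SD over arrays unless called SE. Where a segment's mean lay under the background level, its arrays were raised to at least that level before a bound was computed.

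Of the 62 members, 58 matched a current mouse symbol, 4 of them also an older symbol of another gene, 3 an older symbol only (Aen, Gbp2b and Irgm2), and the TGTP row several genes. Names and promoter windows came from RefSeq (GRCm38.p6). The members and all gene lists were chosen with earlier results of these data known. Per-array values are given for the 12 members per comparison with the largest difference among those called without overlap, and for at least 1 member of each role group, except 2 members that are counted but not reported here. From other lists, up to 3 called genes per comparison with the largest difference were to be named. Ifna1, Ifna6, Ifnb1, Ifng, Ifnar1, Ifnar2, Ifnlr1, Jak1, Lck, Lgals3bp, Socs1, Adgre1, Itgam, Csf1r, Cd3d, Cd3e, Cd8a, Cd2, Gzmb, Ptprc, Pax6, Atp4b, Fabp2, Neurog3 and Chga were named after their values were seen. Alternatives were renormalization, array centring, a filter on dim rows, trend and robust variance, array weights, pairs of groups alone, a replicate block, a 2-fold limit, joint adjustment and each array left out.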

Additional observations from a re-analysis of the deposited data

How the results depend on the processing

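No median difference of the members changed sign under any alternative run. The balance of calls in duodenal minus colonic cells turned with the 2-fold limit, from 11 higher and 18 lower to 2 and 0. With a 2-fold limit, the members called higher were 2 in gastric minus duodenal, 0 in gastric minus colonic and 2 in duodenal minus colonic cells, those called lower were 13, 14 and 0, and all rows called were 1408, 1344 and 645, against 8446, 7993 and 6203 without it. With only rows above the olfactory receptor level, 38 members were tested, and their median differences were -0.71, -0.60 and -0.13, because rows at background no longer entered the median. Deviations of same-numbered arrays correlated at -0.0138 to 0.0132, so no effect shared by replicate number was seen. The labels do not say whether same-numbered arrays shared mice or a batch, and these correlations cannot decide it. With the replicate block, 8 members were higher and 33 lower in gastric than in duodenal cells, 6 and 32 in gastric than in colonic cells, and 11 and 17 in duodenal than in colonic cells. Leaving out 1 array at a time, 40 to 42, 34 to 40 and 24 to 30 members were called in the 3 comparisons. The calls lost with a colonic array were Usp18 in gastric minus colonic cells (without either), Oas1c in the same comparison without colonic replicate 1, and Oas1d, Ifitm1, Ifitm5 and Ifi44 without colonic replicate 2. In duodenal minus colonic cells, Oas1c, Oas1f, Ifitm2, Irgm1 and Ifi30 were lost without colonic replicate 1, and Irf3 and Ifi47 without colonic replicate 2. Irgm1 was also lost with the compared groups alone, array weights and the replicate block. The same held without any single gastric array and without duodenal replicate 1 or 3. Irf3 was also lost with the compared groups alone, the replicate block and without any single duodenal array, and Oas1f without duodenal replicate 2. Isg20l2, Oas1e and Ifitm7 were lost in gastric minus duodenal cells in several of these fits. Calls were also gained. In gastric minus colonic cells these were Gbp10 (with the compared groups alone, array weights, the replicate block, and without duodenal replicate 1 or 3), Ifi30 (with dim rows left out, and with trend and robust variance), and Ifitm6 and Iigp1 (without colonic replicate 1). In duodenal minus colonic cells, Irf9, Ifih1, Oas1a, Oas2 and Mx1 were gained with dim rows left out, Irf9 and Ifih1 with trend and robust variance, Irf9, Ifih1, Ifitm5 and Mx1 with joint adjustment, Ifih1 with array weights, Irf7 with the replicate block, and Irf9, Ifih1, Oas1a, Oas1e, Ifitm5, Ifitm6, Mx1 or Gbp10 in fits without 1 array. The causes were not tested. With only 2 colonic arrays, and levels near background for Oas1a, Oas1d, Oas3, Mx1, Gbp6 and TGTP, small differences of these genes are uncertain.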
